A study of Mus musculus with 24 samples.

Results

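Bile duct epithelium was set against liver mesenchyme in the homeostasis experiment, in which cells were sorted from undamaged mouse liver and their RNA sequenced in bulk. Libraries came from Smart-seq2, which copies whole transcripts from small inputs. The ductal cells (DCs) of 3 mice made up the epithelial side, and the PDGFRa+SCA1- and PDGFRa+SCA1+ mesenchymal cells (Msc) of the same 3 mice made up the mesenchymal side, so that 9 samples were used, of 12 in that experiment and 24 in the series. The members were chosen by their sort labels, with earlier results of these data known. All 3 mice (A, E and F) were 12 weeks old, had a C57BL/6 background and carried a heterozygous Pdgfra-H2BGFP reporter, B6.129S4-Pdgfratm11(EGFP)Sor/J, which places a nuclear GFP at the Pdgfra locus. A and E were male and F was female. DCs were taken as EpCAM+ cells and the mesenchymal fractions as GFP+ cells with or without SCA1 (the product of Ly6a), all after the removal of CD11b+, CD45+ and CD31+ cells. Epcam, Pdgfra and Ly6a therefore check the sort and are not results. The groups are live cells after tissue digestion and sorting, and the GFP gate takes up whichever cells drive the reporter, not 1 cell type.

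Cholangiocytes, the epithelial cells of bile ducts, are joined by tight junctions and desmosomes, are polarised between a bile-facing and a basal surface, and modify bile through apical and basolateral transporters. Around the portal ducts lie PDGFRa+ mesenchymal cells, among them portal fibroblasts and hepatic stellate cells, which make interstitial collagen, proteoglycans and elastic fibres and send growth factors to the epithelium. The basement membrane between them is a sheet of laminin, type IV collagen and nidogen to which epithelial cells hold through integrins.

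The 9 libraries held 19600000 to 24900000 assigned reads, recovered from the deposited values, which are read counts per exon length divided by a library total. Down the authors' table the totals run through all 12 libraries, so that a value is 0.722 to 1.39 times the TPM of its own library, and the results below were also computed with these totals undone. All levels below are these deposited values, and all differences are on the scale log2(value + 1), DCs minus Msc, ± standard error (SE) of the fit, unless another scale is named. Adding 1 understates the change of genes near 0. In bulk samples, fewer cells of a type and less RNA per cell cannot be told apart. The labels held: Krt19, Krt7, Sox9 and Spp1 were higher in DCs, and Dcn, Pdgfrb, Col1a1 and Col1a2 were higher in both fractions, with no overlap between the sides. Epcam stood at 3091, 3040.0 and 2966 in DCs of mice A, E and F and between 0.396 and 11.7 in the 6 Msc samples. Pdgfra stood between 0.0402 and 0.0828 in DCs, and at 52.9, 70.2 and 101 in PDGFRa+SCA1- Msc and 75.02, 103 and 69.1 in PDGFRa+SCA1+ Msc.

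The sequences just before the transcription start are shown for some named genes of each side, so that the motifs can be read next to them. Not all of these genes are among the largest differences of their side. The sides of Epcam and Pdgfra were fixed by the sort. The windows are the 250 bases upstream of the RefSeq start site (assembly GRCm38.p6), 5′ to 3′ on the gene's strand. Capitals mark matches, on either strand, to the 6 motifs searched: the E-box CAGGTG, which Snai and Zeb repressors bind, the HNF1 motif GTTAAT, the GRHL motif AACCNGTT, the TEAD motif GGAATG, the TATA box TATAAA and the Sp1 motif GGGCGG.
Epcam (chr17:87635729-87635978, + strand): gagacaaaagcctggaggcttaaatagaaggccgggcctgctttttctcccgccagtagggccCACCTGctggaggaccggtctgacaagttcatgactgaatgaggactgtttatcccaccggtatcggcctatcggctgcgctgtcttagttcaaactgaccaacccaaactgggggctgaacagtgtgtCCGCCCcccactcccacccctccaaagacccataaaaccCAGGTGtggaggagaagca
Spp1 (chr5:104434861-104435110, + strand): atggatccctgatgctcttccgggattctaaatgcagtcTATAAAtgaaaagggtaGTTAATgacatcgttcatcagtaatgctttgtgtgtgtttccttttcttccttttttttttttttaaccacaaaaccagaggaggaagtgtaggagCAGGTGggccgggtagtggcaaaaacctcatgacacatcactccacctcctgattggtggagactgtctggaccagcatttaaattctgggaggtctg
Cldn4 (chr5:134946935-134947184, - strand): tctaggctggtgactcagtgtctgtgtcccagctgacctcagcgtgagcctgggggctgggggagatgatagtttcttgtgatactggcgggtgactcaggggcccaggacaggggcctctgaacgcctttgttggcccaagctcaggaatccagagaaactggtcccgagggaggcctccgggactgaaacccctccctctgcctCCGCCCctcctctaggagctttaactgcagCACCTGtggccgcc
Pdgfra (chr5:75152001-75152250, + strand): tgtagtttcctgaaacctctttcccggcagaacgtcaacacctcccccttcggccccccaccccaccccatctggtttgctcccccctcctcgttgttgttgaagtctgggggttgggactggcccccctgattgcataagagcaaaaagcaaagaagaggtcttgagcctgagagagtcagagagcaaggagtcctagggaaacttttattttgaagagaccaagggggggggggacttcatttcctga
Col1a2 (chr6:4505368-4505617, + strand): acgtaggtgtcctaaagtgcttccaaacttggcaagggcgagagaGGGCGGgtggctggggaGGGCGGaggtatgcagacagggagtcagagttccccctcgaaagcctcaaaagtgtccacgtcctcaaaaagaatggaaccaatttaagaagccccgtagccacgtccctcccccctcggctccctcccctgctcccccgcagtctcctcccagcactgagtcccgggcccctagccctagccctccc
Col3a1 (chr1:45311288-45311537, + strand): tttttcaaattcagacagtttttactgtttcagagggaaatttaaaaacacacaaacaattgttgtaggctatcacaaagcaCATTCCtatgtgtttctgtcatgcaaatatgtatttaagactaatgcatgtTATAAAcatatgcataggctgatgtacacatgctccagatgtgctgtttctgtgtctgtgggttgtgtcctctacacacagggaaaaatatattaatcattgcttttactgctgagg

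Each of the 3 epithelial windows held the E-box: Epcam had 2 matches and Spp1 and Cldn4 had 1 each. Spp1 also held 1 HNF1 motif and 1 TATA box, and Epcam and Cldn4 each held 1 Sp1 motif. Among the mesenchymal windows, Col1a2 had 2 Sp1 motifs, Col3a1 had 1 TEAD motif and 1 TATA box, and Pdgfra had none of the 6. In the GENCODE annotation of the same build the start sites of Epcam, Cldn4 and Col3a1 are also the 5′ ends of the genes, that of Spp1 lies 7 bases from it and that of Pdgfra 41 bases. That of Col1a2 lies 804 bases inside the annotated gene, whose own 5′ end belongs to a longer transcript model. Over windows of the same length, the E-box stood in 22.5% of the 1385 promoters of genes higher in DCs and in 11.9% of the 892 promoters of genes higher in both fractions, beside 15.5% of the promoters of the 10440 genes tested and 16.8% of all 20557 promoters. In the same order, the TEAD motif stood in 11.2%, 14.5%, 10.8% and 12.1%, the HNF1 motif in 5.27%, 3.14%, 4.004% and 6.01%, the GRHL motif in 1.66%, 1.12%, 1.6% and 1.76%, the TATA box in 8.88%, 10.99%, 6.705% and 12.2% and the Sp1 motif in 58.9%, 58.3%, 58.6% and 39.4%. Beside the genes tested, from which both sides come, the TATA box was thus more frequent on both sides, whereas beside all promoters it was less frequent on both. The ductal shares of the TEAD, HNF1 and GRHL motifs likewise lay above those of the genes tested and below those of all promoters. A match describes these letters in these windows and is not a measured binding site. Matches were counted anywhere in the window, so that TATAAA need not lie where a TATA box acts.

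Of 49568 genes listed, 15803 reached a value of 1 in at least 3 of the 9 samples and were tested. Of these, 5373 (34%) differed between DCs and the mean of both fractions at a limma adjusted p under 0.05, of which 3445 were higher in DCs and 1928 were higher in Msc. A stricter rule was used for what parts epithelium from mesenchyme in both fractions alike: an adjusted p under 0.05 in DCs against PDGFRa+SCA1- Msc and again against PDGFRa+SCA1+ Msc, in the same direction, and no overlap between the 3 DC and the 6 Msc samples. This left 2007 genes higher in DCs (12.7% of those tested) and 1292 higher in both fractions (8.18%), and these are the genes called parted below. The median log2 difference was 2.42 on the ductal side and -3.31 on the mesenchymal side, beside 0.43 over all genes tested, and 34 genes on each side differed by more than 8 on the log2 scale. The share of parted genes that were higher in DCs was 60.8% in the deposited values, 53.3% with the reused column totals undone and 50.6% after quantile normalization, which moved the median of all genes to 0.25 and 0.14. With all samples of a mouse left out, the ductal count was 1249 without A, 1148 without E and 1335 without F, and the mesenchymal count was 818 without mouse E.

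**Figure D1:**
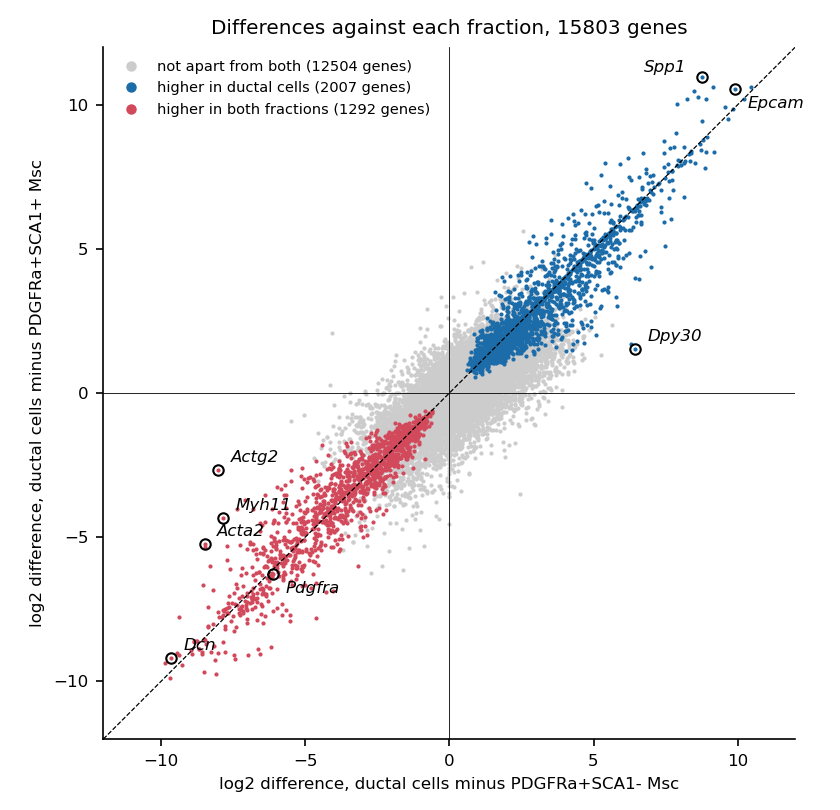
Each point is 1 of the 15803 genes tested, placed by its log2 difference between DCs and PDGFRa+SCA1- Msc (x axis) and between DCs and PDGFRa+SCA1+ Msc (y axis), both on log2(value + 1). The 2007 and 1292 parted genes lie near the dashed line of equal differences, which the rule for parted genes favours, while Actg2, Myh11, Acta2 and Dpy30 lie away from it.

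The difference between the fractions was under 1 on the log2 scale for 1772 (88.3%) of the genes higher in DCs and for 1092 (84.5%) of the genes higher in Msc, beside 75.1% of all genes tested. The rule for parted genes asks both fractions to differ from DCs in the same direction, so that it favours genes alike in the fractions. Genes near 0 in both fractions also differ little between them on this scale. Tested directly, PDGFRa+SCA1+ and PDGFRa+SCA1- Msc differed in 71 (0.449%) of all genes and in 15 (0.455%) of the 3299 parted genes, and 12.8% and 11.4% passed an unadjusted p under 0.05. These shares of the parted genes were near the background. The count of 15 was not stable: it was 2 without any 1 of the PDGFRa+SCA1+ samples, 3 to 4 without a DC sample, 39 to 82 without a PDGFRa+SCA1- sample, and 4 with the mouse as a block. The cause of these changes was not tested. Of all genes tested, only Ly6a, the sort gene, and Tubg2 passed the test against both fractions with opposite signs, and both were picked out after their values were seen.

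Lcn2 and Spp1 were among the genes with the largest differences on the ductal side. Lcn2, a secreted siderophore-binding protein, stood at 4484, 4114 and 4043 in DCs and between 0.365 and 10.6 in Msc, a log2 difference of 10.55 ± 0.64 (limma adjusted p = 6.41e-06 against PDGFRa+SCA1- and 6.36e-06 against PDGFRa+SCA1+ Msc). Spp1, which encodes the secreted phosphoprotein osteopontin, stood at 68006, 61809.6 and 48091 in DCs, 57.9, 293 and 144 in PDGFRa+SCA1- Msc and 13.9, 26.5 and 59.6 in PDGFRa+SCA1+ Msc, with a log2 difference of 9.86 ± 0.52 (limma adjusted p = 5.42e-06 and 1.31e-06). Every DC sample lay far above every Msc sample for both genes, and no Msc sample was at 0. Tm4sf4 and Tspan8, which encode tetraspan membrane proteins, differed by 10.19 ± 0.8 and 9.48 ± 0.83, and Ankrd1, an ankyrin-repeat protein induced by YAP, by 9.22 ± 0.65. Ankrd1 stood at 8000.0, 8026 and 7587 in DCs and between 2.499 and 99.2 in Msc.

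**Figure D2:**
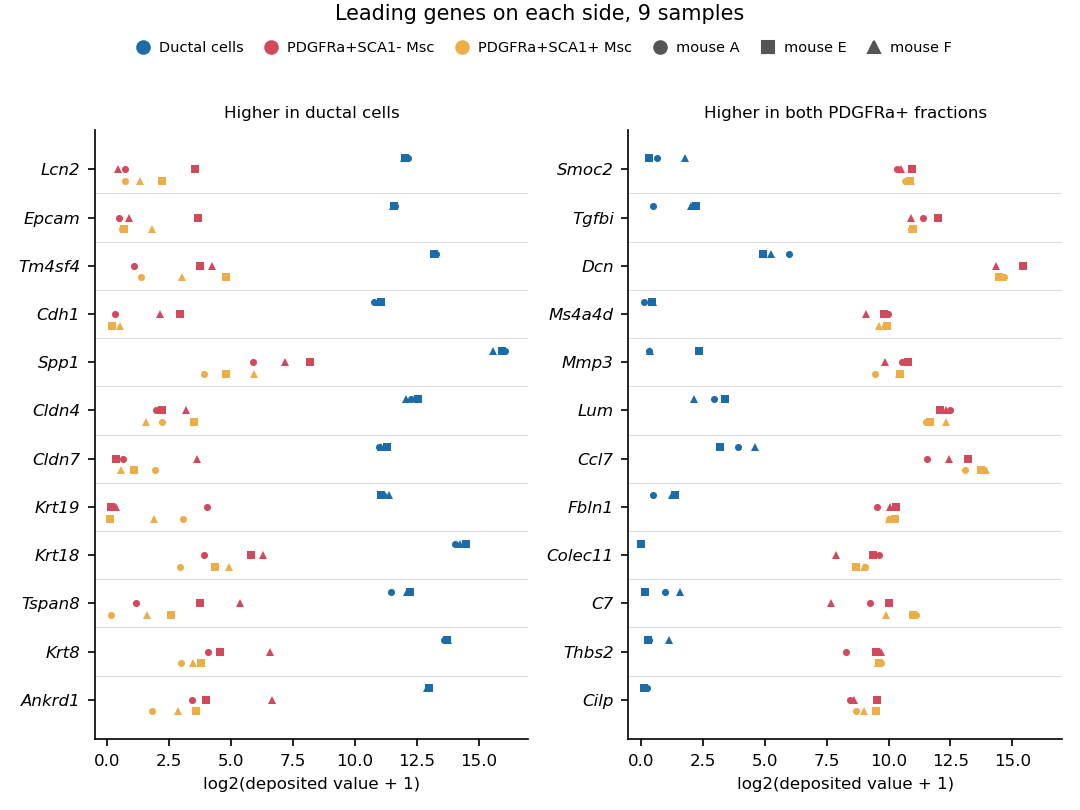
The 12 parted genes with the largest difference on each side, with log2(deposited value + 1) on the x axis and 1 point for each of the 9 samples, coloured by group and shaped by mouse. That the 3 DC points of a gene do not overlap with the 6 Msc points is required by the rule for parted genes. The difference of means reaches 10.55 for Lcn2 and -9.78 for Smoc2.

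All 12 ductal markers were parted, with a median log2 difference of 7.13. The gene lists here and below were written with earlier results of these data known. Their counts therefore describe the lists and are not a test of them. Of all genes tested, 12.7% were parted as higher in DCs and 8.18% as higher in both fractions. Krt7 stood at 141, 166 and 164 in DCs and was at 0 in all 3 PDGFRa+SCA1+ samples and at 0.0679, 0.0195 and 0 in PDGFRa+SCA1- Msc. Prom1, a protein of membrane protrusions, stood at 115, 161 and 115 in DCs and at most at 0.111 in Msc. Sox9, the transcription factor of bile duct formation, was the marker with the smallest difference: it stood at 663, 366 and 377 in DCs, 30.5, 69.1 and 78.9 in PDGFRa+SCA1- Msc and 58.2, 61.9 and 52.1 in PDGFRa+SCA1+ Msc, a difference of 2.98 ± 0.33. Its mesenchymal level was well above 0 in all 6 samples.

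The keratins, which build the intermediate filaments of epithelia, were parted in 7 of 7 tested genes with a median log2 difference of 8.97. Krt18 stood at 16837, 23054 and 19192 in DCs and between 6.57 and 77.4 in Msc. Its filament partner Krt8 stood at 12267, 13553 and 13690.4 and between 6.86 and 94.8. Krt19 stood at 2249.8, 2099.6 and 2639 in DCs, 15.4, 0.1005 and 0.276 in PDGFRa+SCA1- Msc and 7.23, 0.0919 and 2.69 in PDGFRa+SCA1+ Msc: the DC values lay close together, while the highest Msc value of each fraction was that of mouse A. Krt23 differed by 8.97 ± 0.77 and Krt80 by 5.44 ± 0.53. Krt20 was listed at 0 in all Msc samples and stood at 12.4, 13.3 and 21.5 in DCs.

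Cell junction genes parted nearly as completely, in 24 of 25 tested and all of them higher in DCs, with a median of 5.66. With all samples of a mouse left out, 23 were parted without mouse A, 20 without E and 22 without F. Cdh1, which encodes the adherens junction protein E-cadherin, stood at 1742, 2111 and 2008 in DCs and between 0.132 and 6.59 in Msc, a difference of 9.88 ± 0.51 (limma adjusted p = 3.65e-06 against PDGFRa+SCA1- and 1.34e-06 against PDGFRa+SCA1+ Msc). The tight junction claudins Cldn4, Cldn7 and Cldn3 differed by 9.84 ± 0.43, 9.73 ± 0.67 and 8.07 ± 0.82. Cldn4, whose promoter window is printed above, stood at 4864, 5963 and 4245 in DCs and between 1.94 and 10.4 in Msc. Dsg2, a desmosomal cadherin, stood at 463, 530.2 and 356 in DCs and at most at 1.02 in Msc, and Ocln, the tight junction protein occludin, at 439.5, 377 and 335 and at most at 1.82. No DC sample came near the Msc range for any of these. At the other end, Jup, a plaque protein of both desmosomes and adherens junctions, differed by 1.59 ± 0.19, with 537, 561 and 512 in DCs and 106 to 339.7 in Msc. Jup lost its call without all samples of mouse E or of mouse F (limma adjusted p = 0.0775 and 0.0523 against PDGFRa+SCA1- Msc). Cldn1 was the member that was not parted: it was listed at 0 in the 3 DC and the 3 PDGFRa+SCA1- samples and stood at 2.38, 4.66 and 2.18 in PDGFRa+SCA1+ Msc.

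Polarity genes were parted in part. Of 16 tested, 12 were higher in DCs and 4 (Pard3, Pard6a, Scrib and Dlg1) were not parted, with a median of 2.18. Crb3, the apical Crumbs protein, stood at 296, 293 and 212 in DCs and at 0 in 5 of 6 Msc samples, the other being at 0.387. Pard6b, a partner of atypical protein kinase C, differed by 7.48 ± 0.39, and the apical vesicle genes Rab25 and Myo5b by 5.88 ± 1.12 and 5.63 ± 0.45. Rab25 lost its call without all samples of mouse E or of mouse F (limma adjusted p = 0.131 and 0.0718 against PDGFRa+SCA1- Msc). By contrast Pard3, the scaffold that Pard6 proteins bind, stood at 33.7, 29.6 and 31.3 in DCs and 16.5 to 31.03 in Msc, and the 2 ranges overlapped. Prkci and Mpp5 were parted in this fit (1.18 ± 0.32 and 0.82 ± 0.18) but not with the mouse as a block, where the limma adjusted p against PDGFRa+SCA1- Msc was 0.0707 and 0.0846, nor with the reused column totals undone or after quantile normalization. Prkci also lost its call without the DC sample of any 1 mouse, the PDGFRa+SCA1- sample of mouse A or F or the PDGFRa+SCA1+ sample of mouse A or E (limma adjusted p = 0.0545 to 0.117), and Mpp5 without the DC sample of any 1 mouse, the PDGFRa+SCA1- sample of mouse A or F or the PDGFRa+SCA1+ sample of any 1 mouse (0.0501 to 0.106). Here and below, such values for left-out samples are the larger of the adjusted p against either fraction. With all samples of a mouse left out, 7 polarity genes were higher in DCs without mouse A and 6 without mouse E or F.

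Of 21 transcription factors of biliary and other epithelia, 20 were higher in DCs, with a median of 4.34. With all samples of a mouse left out, 18 were higher in DCs without mouse A, 14 without E and 17 without F. Elf3 and Ehf, ETS factors of simple epithelia, stood at 393, 354 and 386 and 354, 242 and 302 in DCs, and at most at 3.52 and 0.461 in Msc. Hnf4a, a nuclear receptor of hepatic epithelium, differed by 7.63 ± 0.64 and Foxa1, a forkhead factor of endoderm, by 6.68 ± 0.4. Onecut2 differed by 6.39 ± 0.4 with at most 0.0309 in Msc. Grhl1, a grainyhead factor of epithelial barriers, was the member that was not parted, with a log2 difference of 3.14 ± 0.86 and a limma adjusted p of 0.0547 against PDGFRa+SCA1+ Msc.

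The mesenchymal counterpart was less uniform: of 26 transcription factors of mesenchyme 17 were higher in both fractions, 9 were not parted and none was higher in DCs, with a median of -3.67. Tcf21, a basic helix-loop-helix factor of fibroblast lineages, stood at 2.001, 0.226 and 0.4398 in DCs, 244, 600.0 and 388 in PDGFRa+SCA1- Msc and 756, 813 and 1078 in PDGFRa+SCA1+ Msc, a difference of -8.38 ± 0.36. Foxf1, a forkhead factor of gut and liver mesenchyme, differed by -7.64 ± 0.24 and Gata4, which acts in stellate cells, by -6.6 ± 0.35. The E-box repressors of epithelial genes were on this side: Snai1 differed by -5.71 ± 0.38, Snai2 by -6.44 ± 0.37, Zeb2 by -5.45 ± 0.32 and Zeb1 by -3.73 ± 0.38. Snai2 stood at 0.0705, 0.0837 and 0.268 in DCs and between 51.01 and 197 in Msc, while Zeb1 stood at 5.06, 6.399 and 4.63 and between 52.4 and 162, so that DCs were near 0 for the former and low but above 0 for the latter. Osr1 was listed at 0 in all DCs and stood between 28.9 and 356 in Msc. Twist1 and Twist2, relatives named with the Snai and Zeb genes in loss of epithelial traits, were not parted: Twist1 was at 0 in all DCs and between 0.105 and 18.8 in Msc.

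Among regulators of splicing, 3 epithelial factors were parted and most mesenchymal ones were not. Esrp1, Esrp2 and Rbm47, which set the epithelial form of many transcripts, were all higher in DCs with a median of 5.55. Esrp1 stood at 19.1, 21.6 and 30.2 in DCs and at 0 in 5 of the 6 Msc samples, and Rbm47 at 148, 152 and 125 and at most at 0.662. Of 5 factors that set mesenchymal forms, Rbms3 and Celf2 were higher in both fractions (-1.57 ± 0.24 and -1.61 ± 0.37) and Qk, Mbnl1 and Rbfox2 were not parted. Rbms3 stood at 41.05, 57.4 and 71.7 in DCs and between 139 and 227 in Msc, so that it was present on both sides, whereas Esrp2 differed by 5.55 ± 0.46. With the reused column totals undone or after quantile normalization 4 of these 5 factors were parted, and the Celf2 call was lost without the DC sample of mouse E or F, the PDGFRa+SCA1- sample of mouse E or F or the PDGFRa+SCA1+ sample of mouse A or E (limma adjusted p = 0.0501 to 0.0879).

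Genes of bile secretion were parted in 8 of 13 tested, all higher in DCs, with a median of 3.78. Slc5a1, a sodium-coupled sugar transporter, stood at 319.7, 263 and 187 in DCs and at most at 1.18 in Msc. Cftr, the apical chloride channel, stood at 50.8, 34.3 and 55.5 in DCs and at most at 0.0234 in Msc, a difference of 5.54 ± 0.4. Sctr, the receptor for secretin, was listed at 0 in all 6 Msc samples and stood at 17.9, 7.42 and 14.6 in DCs, and Slc10a2, which takes up bile acids, differed by 4.64 ± 0.41. Abcc3 and Atp1b1, a basolateral exporter and a subunit of the sodium pump, differed by 5.4 ± 0.7 and 4.14 ± 0.34. The other 5 (Slc4a2, Aqp1, Gpbar1, Slc12a2 and P2ry2) were not parted. Aqp1, a water channel of cholangiocytes, stood at 6.85, 9.82 and 22.8 in DCs and between 4.47 and 77.1 in Msc, and Slc4a2, the bicarbonate exchanger, at 20.2, 10.9 and 17.2 and between 6.94 and 30.04, and both sets of values overlapped. Gpbar1, a bile acid receptor, stood at 0, 3.99 and 1.902 in DCs and 3.12 to 66.9 in Msc.

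Primary cilium genes linked to cystic bile duct disease did not move as a group. Pkhd1, which encodes fibrocystin, was higher in DCs (6.45 ± 0.44), with 104, 114 and 82.3 in DCs and at most 1.02 in Msc, and so was the calcium channel gene Trpv4 (5.67 ± 0.42). Pkd1, which encodes polycystin-1, was lower in DCs, with 7.82, 3.296 and 7.21 in DCs and 13.6 to 27.01 in Msc. That call was lost with the mouse as a block (limma adjusted p = 0.0625 and 0.0527 against the fractions) and without the DC sample of mouse E or F, the PDGFRa+SCA1- sample of mouse E or the PDGFRa+SCA1+ sample of mouse A or E (limma adjusted p = 0.0569 to 0.106). The other 5 of 8 were not parted, and the list's median was -0.09. Membrane-bound serine proteases and their inhibitors, which trim epithelial surface proteins, were all higher in DCs (6 of 6 tested, median 6.87). Spint1 stood at 434, 546 and 441 in DCs and at most at 0.166 in Msc, a difference of 8.78 ± 0.37, and Prss8 differed by 8.02 ± 0.39.

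Smoc2, Tgfbi and Mmp3 were among the genes with the largest differences on the mesenchymal side. Smoc2, a matrix protein that binds calcium, stood at 0.577, 0.253 and 2.46 in DCs, 1294, 1979 and 1446 in PDGFRa+SCA1- Msc and 1641, 1871 and 1928 in PDGFRa+SCA1+ Msc, a log2 difference of -9.78 ± 0.31 (limma adjusted p = 1.53e-07 and 1.43e-07). Tgfbi, a matrix adhesion protein induced by TGF-beta, stood at 0.395, 3.69 and 3.12 in DCs and between 1918 and 4126 in Msc, and Mmp3, a matrix-degrading enzyme, at 0.252, 4.14 and 0.284 and between 700.0 and 1778. All 3 genes were near 0 in DCs. The chemokine gene Ccl7 stood at 14.2, 8.26 and 23.3 in DCs, 2992, 9549.6 and 5603 in PDGFRa+SCA1- Msc and 8646, 13657 and 15568 in PDGFRa+SCA1+ Msc. C7, a part of the membrane attack complex of complement, differed by -8.91 ± 0.52. Colec11, a secreted lectin of the complement system, was listed at 0 in all DCs and stood between 235 and 788 in Msc. Ms4a4d, Thbs2 and Cilp differed by -9.35 ± 0.23, -8.8 ± 0.34 and -8.77 ± 0.29.

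All 13 interstitial collagens tested were higher in both fractions, with a median of -6.89. Col1a1, which encodes the main chain of type I collagen, stood at 3.095, 1.64 and 3.59 in DCs, 1582, 1521 and 1767 in PDGFRa+SCA1- Msc and 1371, 1777 and 1160.4 in PDGFRa+SCA1+ Msc, a difference of -8.69 ± 0.22 (limma adjusted p = 1.02e-07 and 8.70e-08). Its partner chain Col1a2 differed by -7.53 ± 0.19, Col3a1 of type III by -8.73 ± 0.2 and Col6a1 of type VI by -8.73 ± 0.25. Col3a1 stood at 3.31, 4.99 and 3.02 in DCs and between 1581 and 2452 in Msc. The 3 samples of each group lay close together for these genes, and the fractions differed by 0.2, 0.2, 0.25 and 0.21 on the log2 scale, none of which passed the test. The smallest difference in the list was that of Col16a1 (-3.06 ± 0.36), with 6.81, 9.88 and 9.47 in DCs.

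Small leucine-rich proteoglycans, which coat collagen fibrils, were parted in 8 of 9 tested, with the lowest median of all lists (-7.77). Dcn, the gene for decorin, stood at 61.8, 29.4 and 36.8 in DCs, 42557, 43598 and 20423 in PDGFRa+SCA1- Msc and 25796, 22569.7 and 25514 in PDGFRa+SCA1+ Msc, a difference of -9.43 ± 0.29. It was the most abundant of the matrix genes named here per exon length, and was above 0 in all DCs. Lum, the gene for lumican, stood at 6.72, 9.54 and 3.38 in DCs and between 2899.8 and 5717 in Msc, and Ogn, Fmod and Podn differed by -8.77 ± 0.34, -8.33 ± 0.48 and -7.77 ± 0.35. Aspn differed by -5.42 ± 0.73. Omd was not parted: it was at 0 in all DCs, at 0, 129 and 0 in PDGFRa+SCA1- Msc and at 67.1, 87.7 and 42.6 in PDGFRa+SCA1+ Msc, so that in the SCA1- fraction it was above 0 only in mouse E.

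The machinery that processes collagen followed it less closely. Of 25 genes tested, 16 were higher in both fractions, 1 in DCs and 8 were not parted, with a median of -2.24. With all samples of a mouse left out, 14 were higher in both fractions without mouse A, 12 without E and 14 without F. The largest differences were those of secreted proteins: Adamts2, which removes the procollagen N-propeptide, differed by -7.4 ± 0.36, the crosslinking oxidases Lox and Loxl1 by -7.17 ± 0.27 and -7.06 ± 0.48, and Pcolce, an enhancer of C-propeptide removal, by -6.28 ± 0.24. Lox stood at 0.113, 0.119 and 0.0354 in DCs and between 114 and 256 in Msc. Among the proteins of the endoplasmic reticulum, Serpinh1, the collagen chaperone, stood at 156, 124 and 119.9 in DCs and between 894 and 2052 in Msc, a difference of -3.3 ± 0.29. Plod3, a lysyl hydroxylase, stood at 67.7, 79.1 and 34.8 in DCs and between 40.4 and 87.8 in Msc and was not parted. P4ha3, a prolyl hydroxylase subunit, was the gene higher in DCs (2.66 ± 0.55), with 19.8, 13.3 and 10.7 in DCs and at most 3.696 in Msc, and its call was lost with the mouse as a block (limma adjusted p = 0.0519 against PDGFRa+SCA1+ Msc), with a pseudocount of 0.1 and without the DC sample of any 1 mouse or the PDGFRa+SCA1+ sample of any 1 mouse (0.0702 to 0.129).

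Elastic fibre and matricellular genes were higher in both fractions in 17 of 20 tested, with a median of -5.70. Fbln1, a fibulin, differed by -8.98 ± 0.26, the microfibril gene Mfap4 by -7.87 ± 0.24 and Eln, the gene for elastin, by -6.63 ± 0.3. Sparcl1, a matricellular relative of Sparc, stood at 7.51, 6.41 and 5.04 in DCs and between 984 and 1910.2 in Msc. The exceptions were Fbln2, Fn1 and Tnc. Fn1, which encodes fibronectin, stood at 111, 104 and 84.4 in DCs, 94.1, 103 and 147 in PDGFRa+SCA1- Msc and 64.2, 65.6 and 113 in PDGFRa+SCA1+ Msc, a log2 difference of 0.08 ± 0.25, with DC and Msc values interleaved. Tnc stood at 0, 0 and 0.0234 in DCs, 0.0219, 45.96 and 45.5 in PDGFRa+SCA1- Msc and 45.2, 32.96 and 51.3 in PDGFRa+SCA1+ Msc, so that the PDGFRa+SCA1- sample of mouse A overlapped with DCs.

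The basement membrane genes were split between the sides, with a median of -1.56. Of 22 genes tested, 12 were higher in both fractions, 5 were higher in DCs and 5 were not parted. Among those higher in DCs were the laminin chains Lama5, Lamb3 and Lama3 and the proteoglycan Agrn. Lama5, a chain of epithelial laminins, stood at 117, 155 and 129.8 in DCs and between 2.44 and 12.5 in Msc, a difference of 4.49 ± 0.42. Lamb3 stood at 25.2, 18.5 and 20.3 and between 0.0275 and 1.78 (3.91 ± 0.47), so that the sides were far apart for both chains. On the mesenchymal side stood the nidogens Nid1 (-8.23 ± 0.37) and Nid2 (-5.99 ± 0.42), which link laminin to type IV collagen, the laminin chains Lama2, Lamb1, Lamb2 and Lamc1, and all 6 type IV collagen chains. Nid1 stood at 0.123, 0.169 and 1.88 in DCs and between 329 and 665 in Msc. Col4a1 and Col4a2, the most widespread type IV chains, stood at 22.9, 36.9 and 23.3 and 34.3, 25.2 and 25.5 in DCs and between 226 and 304 and between 178 and 304 in Msc, so that DCs were lower but not at 0. Lamb2 and Lamc1 were also present in DCs, at 71.5, 78.2 and 75.3 and 32.7, 33.9 and 31.4. Col4a5 lost its call without the DC sample of any 1 mouse, the PDGFRa+SCA1- sample of mouse E or F or the PDGFRa+SCA1+ sample of mouse A or E (limma adjusted p = 0.0642 to 0.09) and Agrn without the DC sample of mouse A or E (0.0635 to 0.0669).

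Integrins, the receptors for these proteins, were split as well, with a median of -0.12 and 6 of 16 higher in DCs, 7 higher in both fractions and 3 not parted. Higher in DCs were Itgb6, Itga3, Itga6, Itgb4, Itga2 and Itgav. Itga3, Itga6 and Itgb4, parts of the receptors for laminin, differed by 5.09 ± 0.69, 4.42 ± 0.73 and 4.34 ± 0.62, and Itgb6, which pairs with Itgav to activate TGF-beta, by 6.62 ± 0.44. Itga6 lost its call without all samples of mouse A (limma adjusted p = 0.0665 against PDGFRa+SCA1- Msc). Itgb6 stood at 91.5, 80.7 and 167 in DCs and at most at 0.559 in Msc. Higher in Msc were Itga8, Itga11, Itga1, Itga7, Itgb5, Itga9 and Itgb1. Itga11 and Itga1, which bind collagen, differed by -4.53 ± 0.4 and -3.27 ± 0.61, and Itga8 by -6.39 ± 0.32. The common beta chain Itgb1 stood at 272, 305 and 309 in DCs and between 376 and 578 in Msc, the smallest of these differences (-0.7 ± 0.18). Its call was lost with the mouse as a block (limma adjusted p = 0.0582 against PDGFRa+SCA1+ Msc) and without the DC sample of any 1 mouse, the PDGFRa+SCA1- sample of mouse E or F or the PDGFRa+SCA1+ sample of mouse A or F (0.0611 to 0.105), and Itga2 lost its call with a pseudocount of 0.1. Without the PDGFRa+SCA1+ sample of mouse E or F, 4 and 3 integrins were parted as higher in Msc. Itga7 lost its call without the DC sample of mouse E or F or the PDGFRa+SCA1+ sample of any 1 mouse (limma adjusted p = 0.0565 to 0.0778), Itga1 without the PDGFRa+SCA1+ sample of mouse E or F (0.0531 to 0.0582) and Itga9 without the PDGFRa+SCA1+ sample of mouse E or F (0.054 to 0.0669).

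**Figure D3:**
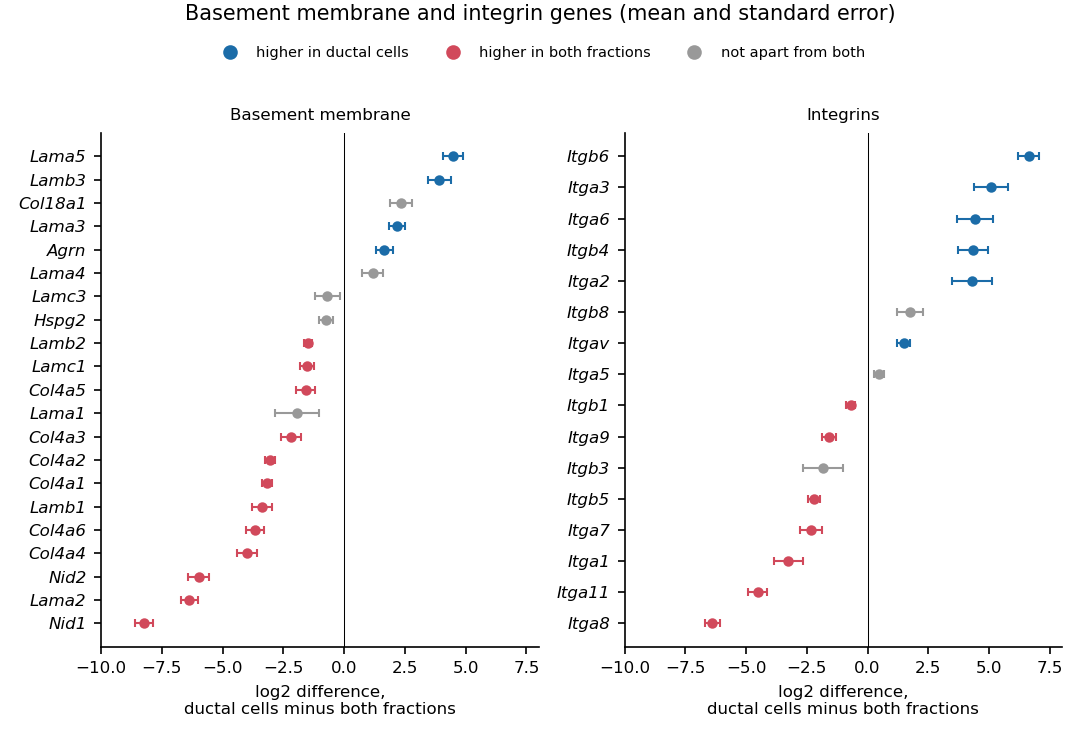
Log2 difference between DCs and the mean of both fractions (x axis, on log2(value + 1)) for tested genes of the basement membrane and integrin lists, with bars for the SE of the fit and colours for the side on which a gene was parted. Lama5, Lamb3 and the integrins Itga3, Itga6 and Itgb4 lie to the right, and nidogens, type IV collagens, Itga8 and Itga11 lie to the left.

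Receptors of pericytes and fibroblasts were higher in both fractions in 7 of 9 tested, with a median of -6.20. Pdgfrb stood at 0.136, 0.187 and 0.1104 in DCs, 338, 274 and 272 in PDGFRa+SCA1- Msc and 163, 246 and 268 in PDGFRa+SCA1+ Msc. Ddr2, a collagen receptor, differed by -6.95 ± 0.31, Eng, a co-receptor for TGF-beta, by -6.24 ± 0.37 and Ngfr, a neurotrophin receptor, by -5.9 ± 0.41. Mcam, a pericyte and endothelial adhesion protein, and Nt5e, an ectonucleotidase, were not parted. Among mesenchymal filament and cadherin genes 6 of 8 were higher in both fractions, with a median of -2.71, and 3 of 8 without the DC sample of mouse A or E. Vim, the gene for vimentin, stood at 4.39, 7.73 and 10.1 in DCs and between 725 and 1192 in Msc, and Des, the gene for desmin, at 0.0426, 0.587 and 0.463 and between 121 and 245. Cdh2, the gene for N-cadherin, was not parted: it stood at 1.18, 3.13 and 1.37 in DCs and between 0.183 and 23.7 in Msc, so that the low values of both sides overlapped.

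Most markers of stellate cells, portal fibroblasts and smooth muscle cells were higher in both fractions. Of stellate cell markers 13 of 14 were, with a median of -5.32. Among them was Ecm1, an extracellular matrix protein, which stood at 7.46, 8.999 and 4.48 in DCs, 6766, 7577 and 2599 in PDGFRa+SCA1- Msc and 1690.2, 1950.5 and 1498 in PDGFRa+SCA1+ Msc. Lrat, which stores retinol as an ester, differed by -7.02 ± 0.45, and Rgs5 was not parted, with 101, 62.9 and 129 in DCs, 439.9, 496 and 188 in PDGFRa+SCA1- Msc and 78.5, 81.5 and 71.3 in PDGFRa+SCA1+ Msc. Of portal fibroblast markers 9 of 10 were higher in both, with a median of -5.45, among them Dpt (-8.47 ± 0.25), Cd34 (-6.91 ± 0.33) and Pi16 (-6.05 ± 0.42), and Fbln2 was not, with 10.5, 16.9 and 13.8 in DCs and 23.7, 69.8 and 12.4 in PDGFRa+SCA1+ Msc. Of smooth muscle markers 7 of 8 were higher in both, with a median of -5.37, among them Myl9 (-7.52 ± 0.28). Cnn1, which encodes calponin, was the exception: it stood at 7.91, 9.78 and 6.47 in DCs, 72.9, 178 and 265 in PDGFRa+SCA1- Msc and 0.0506, 0 and 7.72 in PDGFRa+SCA1+ Msc, so that every DC sample lay above 2 of the 3 PDGFRa+SCA1+ samples. Without the samples of mouse E, 4 of the 8 smooth muscle markers and 6 of the 10 portal fibroblast markers were higher in both.

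**Figure D4:**
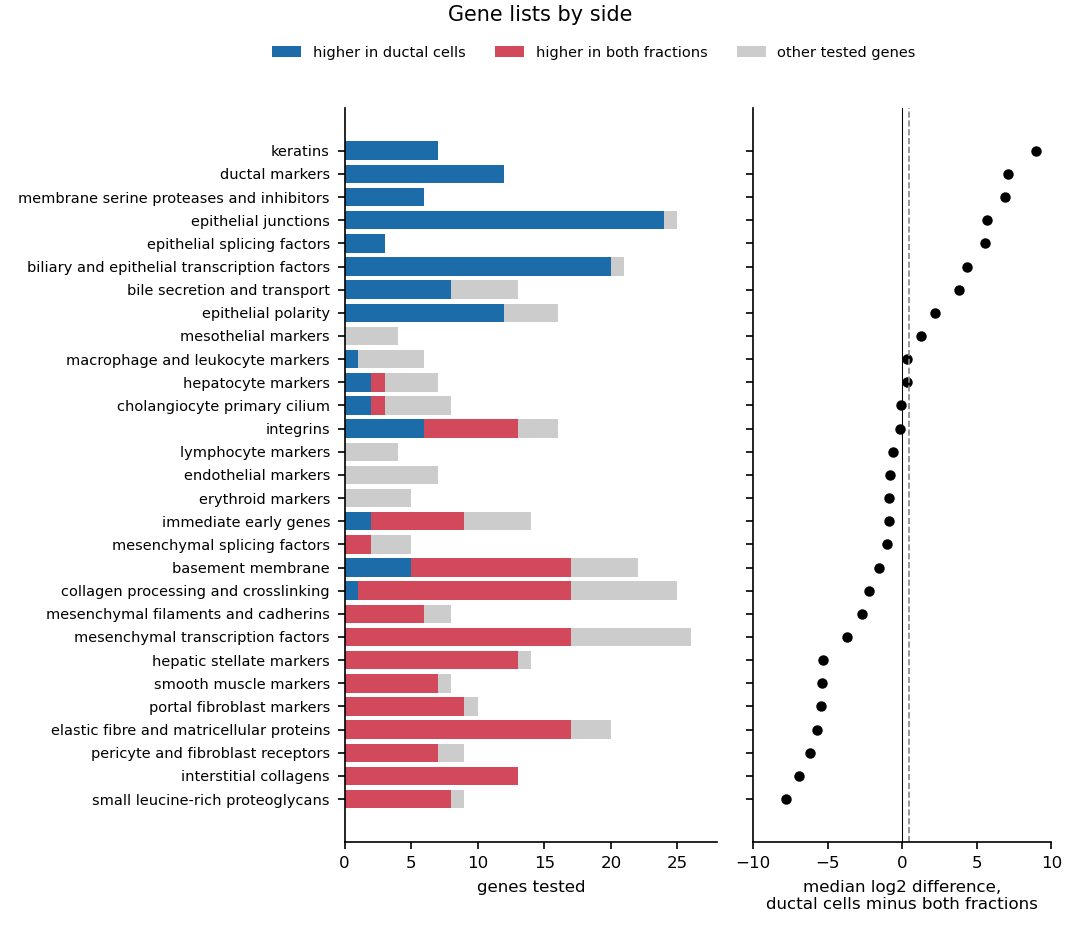
Left, for each list of genes, the number of tested members that were parted as higher in DCs, parted as higher in both fractions, or neither; right, the median log2 difference of the tested members between DCs and the mean of both fractions, with a dashed line at the median of all genes (0.43). Keratins (8.97) stand at the ductal end and small leucine-rich proteoglycans (-7.77) at the mesenchymal end.

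Ligands and receptors were compared as 71 named pairs, and in 14 of them the ligand was parted on one side and the receptor on the other. Of all genes tested, 12.7% were parted as higher in DCs and 8.18% as higher in both fractions. Whether 14 of 71 exceeds the share of such pairs among other genes was not tested. In 9 the ligand was higher in DCs and the receptor in both fractions. Among them were Pdgfb and Pdgfd with Pdgfrb and Pdgfc with Pdgfra. Pdgfra is the gene whose reporter gated the Msc, so that the side of the receptor in that 1 pair was fixed by the sort. Pdgfb stood at 119, 112 and 119 in DCs and at most at 0.175 in Msc, a difference of 6.81 ± 0.39, opposite its receptor Pdgfrb (-7.8 ± 0.24). Pdgfd, another ligand of Pdgfrb, and Pdgfc, a ligand of Pdgfra, differed by 1.76 ± 0.27 and 4.4 ± 0.67. The vasoconstrictor gene Edn1 stood at 98.5, 69.3 and 39.6 in DCs and between 0.0674 and 5.7995 in Msc, while its receptors Ednra and Ednrb differed by -6.07 ± 0.37 and -7.47 ± 0.35 in the other direction. Wnt7b stood at 49.5, 50.2 and 39.4 in DCs and at 0 in 5 of 6 Msc samples, opposite the Wnt receptor Fzd1, which was higher in Msc (-2.76 ± 0.29) but present in DCs at 23.05, 17.8 and 12.6. The other pairs of this kind were Sema3c with Plxnd1 and the Notch pairs Jag2 with Notch3 and Dll1 with Notch1. Jag2 stood at 2.495, 1.81 and 4.52 in DCs, and Dll1 lost its call with the mouse as a block (limma adjusted p = 0.089 against PDGFRa+SCA1+ Msc), with the reused column totals undone, after quantile normalization, with a pseudocount of 0.1 and without the DC sample of any 1 mouse or the PDGFRa+SCA1+ sample of any 1 mouse (0.0783 to 0.141). Jag2 lost its call without the DC sample of mouse F or the PDGFRa+SCA1+ sample of mouse A or E (limma adjusted p = 0.0518 to 0.0811) and Plxnd1 without the DC sample of mouse E (0.0549).

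In 5 pairs the ligand was higher in both fractions and the receptor in DCs. Hgf, the hepatocyte growth factor gene, stood at 0, 0.614 and 0.04399 in DCs, 96.02, 140.1 and 45.6 in PDGFRa+SCA1- Msc and 36.7, 50.2 and 42.5 in PDGFRa+SCA1+ Msc, a difference of -5.69 ± 0.41, and its receptor Met stood at 42.8, 46.8 and 62.2 in DCs and at most at 0.0598 in Msc, a difference of 5.64 ± 0.39. Neither gene overlapped between the sides, which the rule for parted genes requires. The Wnt-enhancing R-spondins Rspo1 and Rspo3 stood on the mesenchymal side. Rspo1 was listed at 0 in all DCs, at 54.6, 68.3 and 38.7 in PDGFRa+SCA1- Msc and at 15.9, 33.9 and 12.3 in PDGFRa+SCA1+ Msc, and Rspo3 differed by -4.62 ± 0.43. Their receptor Lgr4 stood at 40.4, 29.2 and 27.03 in DCs and between 2.56 and 13.2 in Msc. The Lgr4 call was lost with the mouse as a block (limma adjusted p = 0.0531 against PDGFRa+SCA1+ Msc), with a pseudocount of 0.1 and without the DC sample of any 1 mouse or the PDGFRa+SCA1+ sample of any 1 mouse (0.0565 to 0.151). Tnfsf12, the cytokine TWEAK, differed by -2.67 ± 0.34 and its receptor Tnfrsf12a by 1.58 ± 0.21, the latter being abundant on both sides (8075, 5892 and 5944 in DCs, 1620.2 to 2988 in Msc). The fifth pair was Csf1 with Csf1r: Csf1r, which is best known from macrophages, stood at 46.9, 32.5 and 34.9 in DCs and at 0.0587, 15.1 and 0 and 0, 2.42 and 0.733 in the fractions, and lost its call with a pseudocount of 0.1 and without the DC sample of any 1 mouse (limma adjusted p = 0.0519 to 0.0631). Csf1 lost its call without the DC sample of mouse F or the PDGFRa+SCA1- sample of mouse E (limma adjusted p = 0.0513 to 0.0575). The 8 macrophage and leukocyte markers, of which only Csf1r was parted, summed to 274 to 628 in DCs, 98.2 to 133 in PDGFRa+SCA1- Msc and 157 to 308 in PDGFRa+SCA1+ Msc. Most of the sum in DCs was Cd74 (284, 205 and 519). The leukocyte gene Ptprc stood at 0, 0.0102 and 0.744 and the macrophage gene Adgre1 at 0, 0 and 0.699 in DCs. Both genes were too low to be tested. Ptprc encodes CD45, and CD45+ cells were removed in the sort, so that its low level follows from the gate. The part of macrophage RNA in the Csf1r result was not tested.

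**Figure D5:**
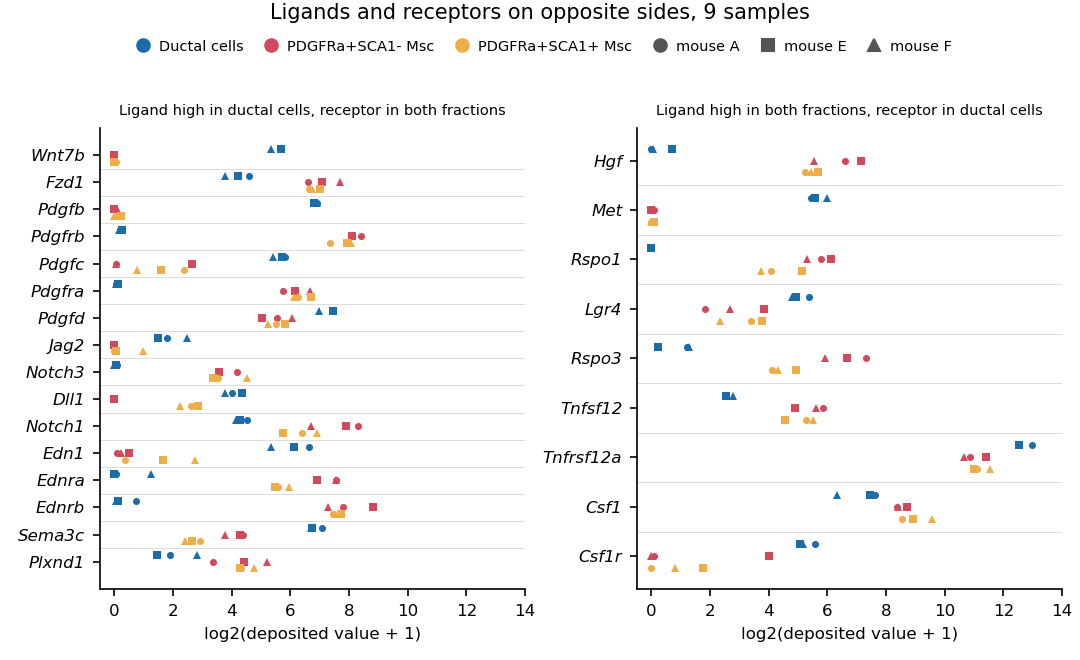
Log2(deposited value + 1) in the 9 samples (x axis) for the ligands and receptors of the 14 pairs with ligand and receptor on opposite sides, coloured by group and shaped by mouse. Wnt7b, Pdgfb and Met are near 0 in nearly all Msc samples and Hgf and Rspo1 in DCs, while Lgr4, Tnfrsf12a, Fzd1 and Csf1 are present on both sides.

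In 6 pairs ligand and receptor were both higher in Msc: Cxcl12 with Ackr3, Gas6 with Axl, Il11 with Il11ra1, Slit3 with Robo2, Tgfb3 with Tgfbr2 and Wnt5a with Ror2. Cxcl12, a chemokine of stromal cells, stood at 13.2, 7.86 and 5.69 in DCs and between 642 and 2395 in Msc, a difference of -7.27 ± 0.28, and Axl, a receptor of the TAM family, differed by -5.99 ± 0.26. Gas6 lost its call without the DC sample of mouse E or F or the PDGFRa+SCA1- sample of mouse E or F (limma adjusted p = 0.053 to 0.0969) and Tgfbr2 without the DC sample of mouse A or F or the PDGFRa+SCA1+ sample of mouse A or F (0.0607 to 0.0753). Efna1 with Epha2 was the pair with both members higher in DCs (3.85 ± 0.45 and 2.19 ± 0.28). The remaining 50 pairs had at least 1 member that was not parted or not tested. Jag1 with Notch2 was among them: Jag1 stood at 45.5, 30.8 and 39.3 in DCs, 2.78, 46.8 and 7.78 in PDGFRa+SCA1- Msc and 58.4, 44.9 and 53.1 in PDGFRa+SCA1+ Msc, and Notch2 at 53.3, 42.95 and 26.3 in DCs and between 14.6 and 34.8 in Msc.

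Some parted genes were still far from equal in the fractions, the contractile actins among them. Actg2 stood at 0.276, 0.109 and 0.117 in DCs, 207, 306 and 427 in PDGFRa+SCA1- Msc and 3.73, 7.82 and 9.07 in PDGFRa+SCA1+ Msc, a difference of -5.33 ± 0.45 (PDGFRa+SCA1+ minus PDGFRa+SCA1-, limma adjusted p = 0.00201). Acta2, the gene for smooth muscle actin, stood at 1.35, 1.32 and 5.59, 808, 1171 and 1708 and 137, 103 and 131 in the same order, a difference of -3.25 ± 0.44 (0.022). On the ductal side, Dpy30, a subunit of histone methyltransferase complexes, stood at 98.99, 127 and 55.8 in DCs, 0, 0.142 and 0 in PDGFRa+SCA1- Msc and 30.3, 28.2 and 32.2 in PDGFRa+SCA1+ Msc. It was thus close to 0 in the SCA1- fraction of all 3 mice and clearly above 0 in the SCA1+ fraction. It was not parted with a pseudocount of 0.1, after quantile normalization or without the DC sample of mouse A or E or the PDGFRa+SCA1+ sample of any 1 mouse (limma adjusted p = 0.0573 to 0.122).

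Immediate early genes, which tissue handling can induce, were parted more often as higher in both fractions than as higher in DCs. Of 14 tested, 7 were higher in both fractions, 2 were higher in DCs and 5 were not parted, with a median of -0.87. Among all genes tested, 8.18% were parted as higher in both fractions and 12.7% as higher in DCs, and the ductal count of 2 was near the latter share. Nr4a1, an orphan nuclear receptor, stood at 578, 416 and 695 in DCs and between 2863 and 4981 in Msc, the largest difference of the list (-2.77 ± 0.22). Fos stood at 3567, 3626 and 2495 in DCs and between 4979.8 and 7359 in Msc and Egr1 at 3145, 2580.1 and 2414 and between 5319 and 6044, so that both were well above 0 on both sides. Atf3, a stress-induced repressor, was higher in DCs, at 3280.3, 2688 and 2015 beside 625 to 1097 in Msc, and so was Btg2 (1.28 ± 0.2). Without the DC sample of mouse F, 4 of the 14 were higher in both fractions, Fos not among them (limma adjusted p = 0.0712), and without all samples of mouse A, E or F 4, 3 and 4 were.

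Among markers of other liver cells, Csf1r and 3 hepatocyte genes were parted. None of the endothelial (7), lymphocyte (4), erythroid (5) and mesothelial (4) markers tested was parted, and 4 glial markers were too low to be tested. Of all genes tested, 12.7% were parted as higher in DCs and 8.18% as higher in both fractions. CD31+ and CD45+ cells were removed from all groups in the sort, which keeps endothelial and lymphocyte markers low on both sides. The erythroid markers were not low: they summed to 546 to 1833 in DCs, 1167 to 5312 in PDGFRa+SCA1- Msc and 786 to 2718 in PDGFRa+SCA1+ Msc. Alb, the gene for albumin, stood at 4807, 6154 and 5219 in DCs, 269.7, 637 and 448 in PDGFRa+SCA1- Msc and 122, 1111 and 118 in PDGFRa+SCA1+ Msc, and Ttr differed by 3.55 ± 0.7. In contrast Cyp2e1, a cytochrome of hepatocytes, was higher in Msc: it stood at 4.23, 9.78 and 46.2 in DCs and between 429.5 and 1138 in Msc. The 8 hepatocyte markers summed to 5825 to 6978 in DCs, 907 to 1648 in PDGFRa+SCA1- Msc and 1059 to 2817 in PDGFRa+SCA1+ Msc, and the part of hepatocyte RNA in the results on genes that hepatocytes share with DCs, such as Hnf4a and Foxa1, was not tested. Neither of the 2 genes higher in DCs, Alb and Ttr, was parted without the samples of mouse A or of mouse F. Cyp3a11, a defining hepatocyte gene, was too low to be tested.

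The parted genes were then read in the other experiment of the series, in which fresh DCs and fresh SCA1+Msc of wild type C57BL/6 mice aged 8 to 12 weeks were sequenced in 2 samples each. These SCA1+Msc are CD45-, CD11b- and CD31- cells for which no PDGFRa gate is given, and the values are TPM made from the deposited RPKM. Of 18119 genes tested there, 4480 (24.7%) were higher in DCs and 3869 (21.4%) higher in SCA1+Msc. Of the genes higher in both fractions, 1276 were tested there, and 1240 (97.2%) were higher in SCA1+Msc at a limma adjusted p under 0.05, with a median log2 difference of -3.04 beside 0.07 over all genes. They made up 32.0% of the genes called in that direction. Of the genes higher in DCs, 1950 were tested there, and 1597 (81.9%) were called in the same direction and 30 (1.54%) in the opposite one, with a median of 1.60, and they made up 35.6% of the calls. The 1 mesenchymal gene called in the opposite direction was Itgb1, named after its value was seen, with a log2 difference of 0.23 ± 0.07.

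Epcam and Spp1 were well above 0 in the mesenchymal samples of that experiment. Epcam stood at 3086 and 2916 TPM in fresh DCs and 53.8 and 113 TPM in fresh SCA1+Msc, and Spp1 at 43312 and 45512 and 890.4 and 1981 TPM, a log2(TPM + 1) difference of 5.06 ± 0.37 (limma adjusted p = 4.59e-06). Cldn4 differed by 5.32 ± 0.33 and Lama5 by 3.34 ± 0.2. Among mesenchymal genes, Dcn stood at 49.6 and 66.7 TPM in DCs and 16789.7 and 16552 TPM in SCA1+Msc, a difference of -8.15 ± 0.51 (1.88e-06), and Col1a1 and Lum differed by -7.996 ± 0.66 and -7.98 ± 0.19. Among the signals, Wnt7b, Pdgfb, Hgf, Rspo1 and Met passed the test in the same direction as in the homeostasis experiment, with differences of 5.72 ± 0.5, 4.45 ± 0.49, -4.72 ± 0.27, -5.75 ± 0.23 and 3.71 ± 0.25. Edn1 did not: it stood at 57.7 and 43.3 TPM in DCs and 25.1 and 46.6 TPM in SCA1+Msc (limma adjusted p = 0.388).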

How the data were processed

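Sorted liver cells were profiled by Smart-seq2 and Nextera XT libraries from total RNA. Per the labels and the study's methods, the authors mapped reads to GRCm38/mm10 with STAR 2.5.0a and counted them with featureCounts (1.6.0 in the transwell experiment; for the homeostasis experiment no version is given in the sources used here). The deposited homeostasis values carry the authors' name TPM, but the columns sum to between 847270 and 1173511, because the library totals used as divisors run through all 12 samples in table order. With these reused totals, 92.9% of values worth up to 20 reads were whole numbers of reads within 0.02, and 16.4% with each sample's own total. From this the depth of 19600000 to 24900000 reads was recovered. The deposited transwell values are RPKM, which were rescaled to TPM here, and 26 rows of symbols turned into dates were left out. The 4 columns of group means in the homeostasis table were not used.

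Tests took in all genes that reached 1 in 3 or more of the 9 samples (2 or more in the transwell experiment). limma 3.58.1 (R 4.3.3) was run on log2(value + 1), with 1 mean per population, eBayes with trend, two-sided tests and Benjamini-Hochberg adjustment at 0.05. Since the values are not counts, no count test was run. The transwell fit used all 12 samples of that experiment. Tables and plots were made with Python 3.11.15, numpy 2.4.6, pandas 2.3.3, scipy 1.17.1 and matplotlib 3.10.9, and the fit was tested on simulated data. In the homeostasis experiment the p-values of the main fit rest on the spread of the 9 samples around their population means, and these samples came from 3 mice. In the transwell experiment they rest on groups of 2 samples, with 1 estimate of the spread shared by all 12, cultured samples among them. The letters A, E and F name the mouse that gave all populations and therefore pair the samples, although deviations from group means correlated only at 0.011 to 0.057 within a mouse and -0.047 to 0.013 between mice. The main fit has no block, and the fit with the mouse as a replicate block was an alternative.

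The members and the gene lists were chosen with earlier results of these data known. Named genes were the 4 markers, the 12 largest differences on each side, up to 6 members of each list with the largest difference together with its exceptions, both genes of pairs on opposite sides, and the 5 parted genes with the largest fraction difference in each direction. Further members and pairs, among them all basement membrane and integrin genes, were named after their values were seen. Some genes that these rules chose are not reported here.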

Additional observations from a re-analysis of the deposited data

Results flagged for a closer look

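In 11 of the parted genes named by the rules the distance from DCs differed between the fractions, that is, the difference between PDGFRa+SCA1+ and PDGFRa+SCA1- Msc passed limma's test itself. The values that follow are log2 differences, PDGFRa+SCA1+ minus PDGFRa+SCA1-. On the mesenchymal side, Actg2 (-5.33), Acta2 (-3.25) and Myh11 (-3.50), all contractile proteins of smooth muscle, and the secreted genes Sfrp2 (-3.38), Postn (-3.36) and Colec10 (-3.13) were nearer to DCs in the PDGFRa+SCA1+ fraction. C4b (1.95), a complement component, and Gas6 (1.43), a ligand of Axl, were farther from DCs in that fraction. On the ductal side, Dpy30 (4.9) and Tmc6 (2.75) were nearer to DCs in PDGFRa+SCA1+ Msc, and Pkp2 (-1.90), a desmosomal plaque gene, was farther.

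Myh11 stood at 0, 0.0216 and 0.0513 in DCs, 148, 233 and 369 in PDGFRa+SCA1- Msc and 20.8, 17.5 and 21.04 in PDGFRa+SCA1+ Msc, and Postn at 1.46, 0.1499 and 0.0196, 237, 194 and 279 and 23.1, 12.9 and 34.6. For both, every PDGFRa+SCA1- sample lay above every PDGFRa+SCA1+ sample. Tmc6 stood at 24.9, 24.5 and 21.5 in DCs, 0, 0.175 and 0.7899 in PDGFRa+SCA1- Msc and 6.09, 8.81 and 8.26 in PDGFRa+SCA1+ Msc, and C4b at 5.86, 3.73 and 10.4, 139.8, 234 and 167 and 736, 682 and 639. With the mouse as a replicate block Actg2, Acta2 and Dpy30 remained past the threshold (limma adjusted p = 0.0221, 0.0489 and 0.0221) and the other 8 did not (0.0801 for Myh11 to 0.138 for Tmc6). Tmc6 was then no longer parted either (limma adjusted p = 0.0845 against PDGFRa+SCA1+ Msc), nor with the reused column totals undone, after quantile normalization, with a pseudocount of 0.1 or without the DC sample of any 1 mouse or the PDGFRa+SCA1+ sample of any 1 mouse (0.087 to 0.133). None of the 11 passed without the samples of any 1 mouse, and 9 of the 11 did not pass without the PDGFRa+SCA1+ sample of mouse A, as many as without that of E or of F.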

How the results depend on the processing

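The counts were recomputed with other pseudocounts, filters, scalings, models and samples. The 5373 genes that differed from the mean of both fractions ranged from 3706 to 6433 when 1 sample was left out and from 3347 to 3945 when 1 mouse was left out. The 2007 genes higher in DCs ranged from 1414 to 2335 and from 1148 to 1335, and the 1292 genes higher in both fractions from 1068 to 1560 and from 818 to 1136, in the same order, with the genes tested held fixed. With the 6 Msc samples taken as 1 group, the counts were 2908 and 1576. That fit asked for 1 test against all Msc in place of 1 against each fraction, and for no overlap. The 15 parted genes with a difference between the fractions became 5 with no filter on low values, 32 with the reused totals undone, 31 with median scaling added, 35 without a trend, 27 with all 12 samples fitted and 4 with the mouse as replicate block. They ranged from 2 to 82 with 1 sample left out, and limma called 0 with any 1 mouse left out, where 170 to 246 passed an unadjusted p under 0.05; the cause was not tested. The counts of the transwell experiment stayed within 1.5 times throughout: 1452 to 1544 and 1183 to 1210 parted genes were called the same way with 1 fresh sample left out, beside 1597 and 1240. The paired fit, with the mouse as replicate block, shared 1769 of the 2007 and 1200 of the 1292 parted genes with the fit without it, and the calls it ended for named genes stand beside them. Of the 182 parted genes named, 22 lost that call without at least 1 of the 9 samples, as given beside each, and 36 without the samples of at least 1 mouse, which is not given beside each. In no alternative did a parted gene turn sides. Among the 211 tested genes named in the text, 193 passed the test against the mean of both fractions, and over 24 alternatives their calls held in 4514 values and were lost in 115. The alternatives that asked for at least 2-fold in both fractions or allowed overlap changed only the rule for parted genes. All 193 calls therefore held in each of them by design. With 3 mice, differences smaller than the spread between them were not detectable.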
